A study of Mus musculus with 7 samples.

Results

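The adipocyte-rich sections were those cryosections of mouse tibialis anterior, a shin muscle, that had the highest summed level of 4 adipocyte genes. They were chosen by the measured counts of Adipoq, Plin1, Cfd and Cidec. In each of 7 muscles, sections with fewer than 1000 counts, or with under 20% of that muscle's median, were dropped. Every kept section was scored by its summed CPM (counts scaled to a library total of 1e+06) of these genes. The top 20% of sections by this score were called rich and the bottom 50% poor, separately in each muscle. This gave 84 rich and 209 poor sections among 422 kept sections of 525 in the tables. The 4 scoring genes chose the sections, so their values are described and not tested.

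The labels name 2 WT muscles, 2 Ctr muscles and 3 DMD muscles, and the series title is about Duchenne muscular dystrophy. No strain, age, sex or treatment is given in the labels, and nothing there says whether any muscles share an animal; the p-values therefore reflect only how these 7 samples varied. In the file headers, section names begin with pax7 in the WT tables, hDMD in the Ctr tables and mdx in the DMD tables, with no further description. The rich sets of the 2 WT muscles held 10 and 13 sections, those of Ctr 12 and 11, and those of DMD 13, 13 and 12. Their counts, added up per muscle, came to 1795592 to 9006670, against 4904706 to 17776511 for the poor sections of a muscle. As a check of the labels, mouse Dmd, the dystrophin gene, was at 8.81 to 19.8 CPM over the kept sections of the 7 muscles. Human DMD, a sequence in the Ctr and DMD annotation, was at 19.5 and 24.8 CPM in Ctr and at 14.5 to 22.7 CPM in DMD, so dystrophin RNA did not separate these groups.

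Adipocytes are the cells of fat tissue, which store triglyceride in a large lipid droplet coated by perilipin (Plin1) and enlarged by Cidec, and which release hormones such as adiponectin (Adipoq) and the protease adipsin (Cfd). In muscle they lie between fibres and along vessels and nerves, and they increase in number in several muscle diseases. They arise there from fibro-adipogenic progenitors, which also make fibrous matrix.

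The score rested on few reads. Over all kept sections, the 4 genes together had 126 and 121 counts in the WT muscles. The Ctr muscles had 150 and 157, and the DMD muscles 521, 66.0 and 205. A rich section held a median of 2 to 16 of these counts, depending on the muscle, and a poor section a median of 0 in 6 muscles and 2.75 in DMD-1. Cfd supplied 54.3 to 73.1% of the counts. The lowest rich section and the highest section outside the rich set were close everywhere, at 12.4 and 12.3 CPM in WT-1, 13.5 and 12.3 in WT-2, 15.9 and 15.5 in Ctr-1, 19.6 and 19.0 in Ctr-2, 18.65 and 16.8 in DMD-1, 11.1 and 10.4 in DMD-2, and 10.9 and 10.5 in DMD-3. Sections near the threshold could therefore change sides by counting error alone.

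The spread of rich sections along the section barcode order, which the labels do not state to be the cutting order, varied between muscles. They formed 4 unbroken runs in Ctr-2, with the longest of 7 sections, and 5 runs each in Ctr-1, DMD-1 and DMD-3, with the longest of 4, 5 and 5. They lay in 7 runs of at most 2 sections in WT-1, 8 of at most 3 in WT-2 and 10 of at most 2 in DMD-2. How many runs chance would give was not tested. In DMD-3 the score was concentrated near the end of the order, and section 57 of 60 reached 515 CPM. Position showed no shift past the test: the distance of rich sections from the midpoint, as a percentage of the distance from the midpoint to an end, minus that of poor sections, was -5.27 ± 23.6 (SD, n = 7; exact two-sided sign-flip permutation p = 0.640625, where the smallest possible is 0.015625). This difference was positive in 4 of 7 muscles and ranged from -44.9 in DMD-1 to 20 in WT-1. Without DMD-1 its mean was 1.33 (exact p = 0.78125).

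**Figure D1:**
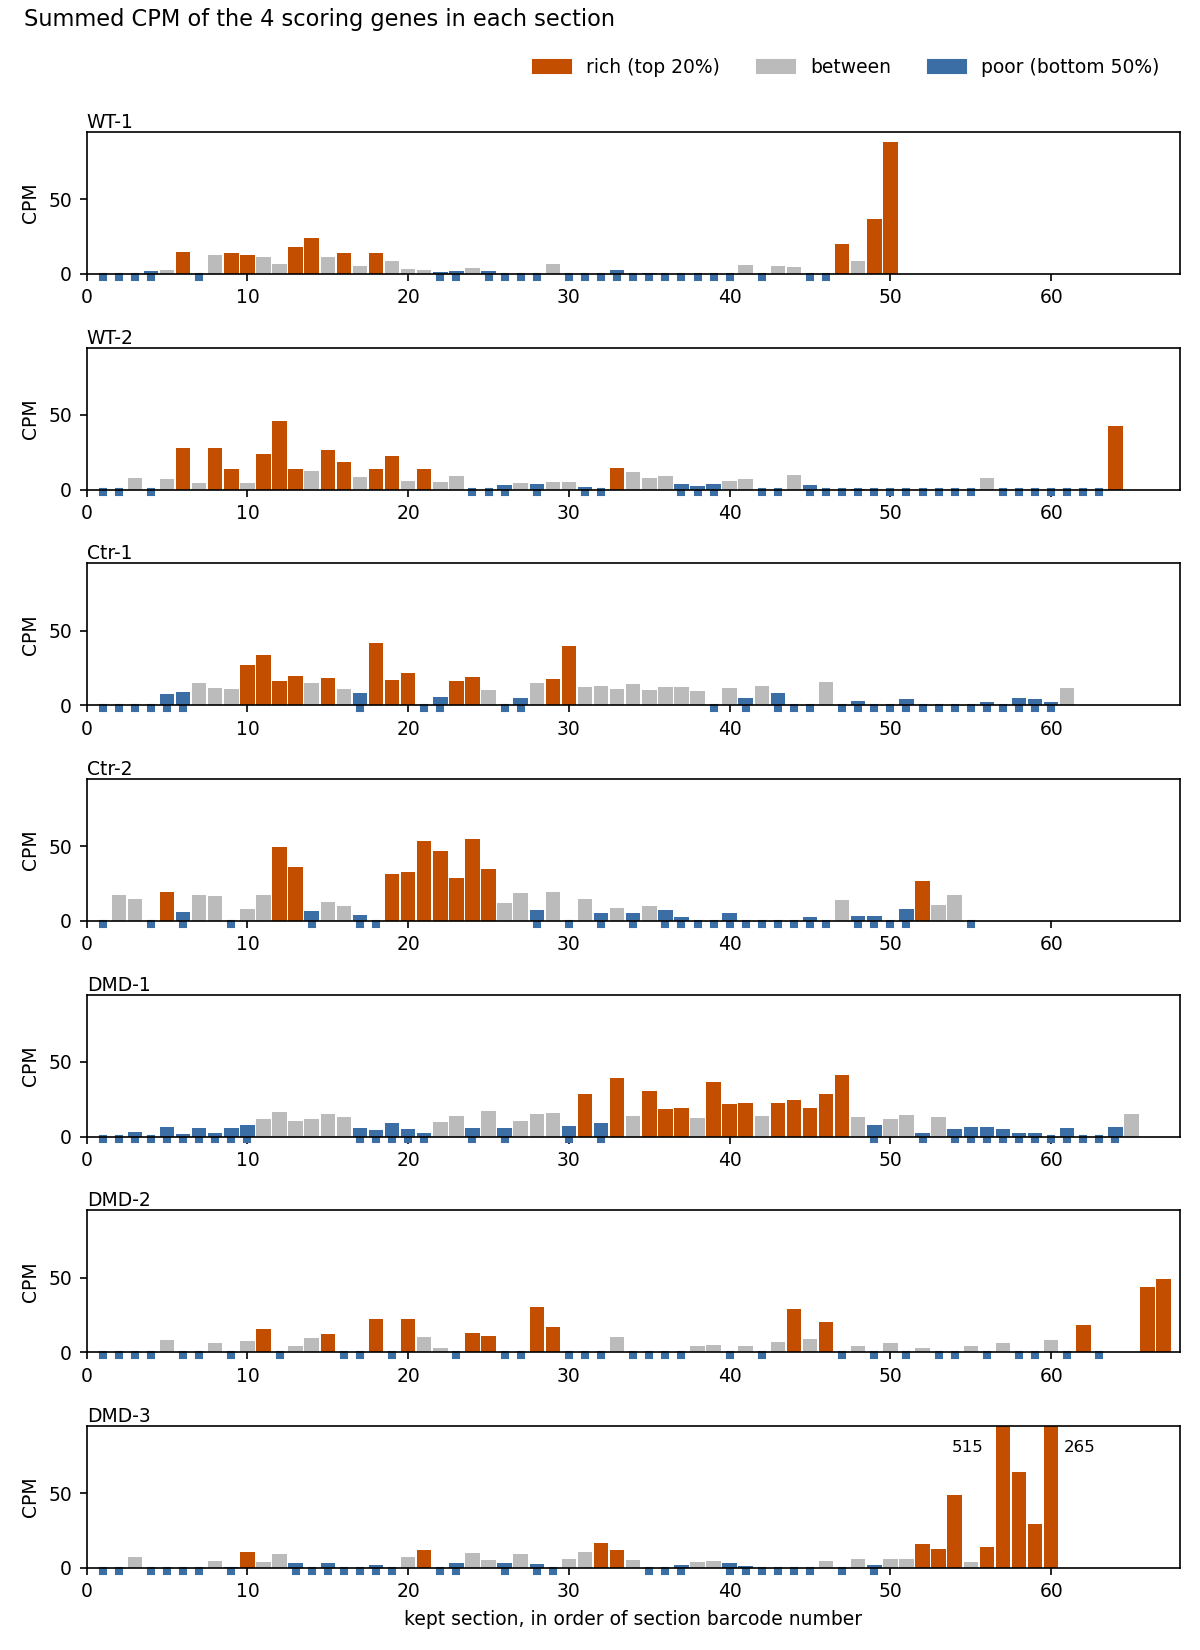
Summed CPM of Adipoq, Plin1, Cfd and Cidec (vertical axis, CPM) in every kept section (horizontal axis, order of section barcode number) of the 7 muscles; orange bars are rich, grey bars between and blue bars and squares poor sections. The axis stops at 95 CPM, and the 2 bars of DMD-3 that pass it carry their values, 515 and 265; the rich sections of Ctr-2 and DMD-1 lie together while those of DMD-2 are scattered.

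Sequencing depth showed no shift past the test over the 7 muscles. The log2 ratio of the median section total, rich over poor, was -0.03 ± 0.54 (SD, n = 7; exact two-sided sign-flip permutation p = 0.9375). It was positive in 5 of 7 muscles, and DMD-3 stood apart, with a median of 204032 counts in its rich and 457094 in its poor sections. Without DMD-3 the mean was 0.16 (exact p = 0.15625).

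The name was checked with 15 adipocyte markers that took no part in the score. Of these, 12 had enough counts to be tested in edgeR's quasi-likelihood test, which compared the rich and poor sums with the muscle as block and adjusted p-values by Benjamini-Hochberg over 11598 genes. Scd1, Retn and Pck1 were called higher in the rich sections, none was called lower, and 11 of 12 had a log2 fold above 0. The exception was Car3, with -0.31 (adjusted p = 0.0686). In the same comparison 0.147% of all genes tested were called higher. The median log2 fold of the 12 markers was 0.34, beside -0.02 for all genes. Fabp4, the fatty acid binding protein of adipocytes and capillaries, had a log2 fold of 0.16 (adjusted p = 0.415), Plin4 0.02 (adjusted p = 1), and Pparg, the master regulator of adipocyte formation, 0.01 (adjusted p = 1), none past the threshold of 0.05. Leptin (Lep) had 5 counts in all rich and 2 in all poor sections, too few to test, and Ucp1, which marks brown adipocytes, had 0 counts. In WT and in Ctr taken alone, Lpl was called higher and Car3 lower. Over all 7 muscles, only some of the adipocyte markers were thus higher in the rich sections. Ckm, the muscle creatine kinase, stood at 7460 to 15620 CPM in the rich sums, with a log2 fold of -0.07 (adjusted p = 0.652). In sections of mixed tissue, more cells of a type and more RNA per cell cannot be told apart.

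Over all 7 muscles, 20 of 11598 genes differed between rich and poor sections (0.172%), 17 higher and 3 lower in the rich (0.147% and 0.0259%). Scd1, Hp, Cyp2e1, Retn and Nnat stood at 3.05 to 10.7 times the level of poor sections, and Mbp, a myelin gene, at 1.69 times. At an unadjusted p below 0.05 there were 898 genes. The count was 9 without Ctr-1, 13 without Ctr-2, 10 without WT-1, 11 without WT-2 and 31 without DMD-1. Scaled by library totals alone, 15 genes were called higher and 15 lower.

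Scd1, the stearoyl-CoA desaturase that makes monounsaturated fatty acids (GRCm38 chr19:44394455-44407879, minus strand), had the smallest p. Its level in the rich sections of WT-1, WT-2, Ctr-1, Ctr-2, DMD-1, DMD-2 and DMD-3, in CPM scaled by the trimmed mean of M-values (TMM), was 16.7, 24.6, 3.03, 23.8, 24.9, 16.9 and 55.6. In the poor sections of the same muscles it was 5.02, 7.44, 3.47, 10.4, 7.86, 8.43 and 11.7 CPM. It was higher in the rich sections of every muscle except Ctr-1, and DMD-3 had by far the highest value. The mean was 23.7 ± 16.0 CPM in rich and 7.76 ± 2.86 CPM in poor sections (SD, n = 7), and the log2 fold was 1.61 ± 0.14 (SE; edgeR adjusted p = 4.1e-07). Pck1, the phosphoenolpyruvate carboxykinase that adipocytes use to make glycerol for triglyceride, rested on 38 counts in rich and 20 in poor sections. It was higher in 6 of 7 muscles, with Ctr-1 again the exception (0.303 against 0.599 CPM), and its log2 fold was 2.29 ± 0.47 (adjusted p = 0.0333). The call on Pck1 was lost without Ctr-2 (adjusted p = 0.0758), WT-1 (adjusted p = 0.0999) or WT-2 (adjusted p = 0.172), and without DMD-1 or DMD-3 the gene did not pass the count filter. The call was also lost with the highest-scoring section of every muscle left out, an alternative chosen after seeing the data.

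Among secreted proteins, Hp, which encodes haptoglobin, a binder of free haemoglobin made by liver and fat (chr8:109575128-109579172, minus strand), was higher in all 7 muscles. In rich sections it stood at 0.983 and 2.24 CPM in the WT muscles, 8.79 and 4.38 in Ctr, and 6.95, 0.846 and 19.1 in the DMD muscles. In poor sections it stood at 0.579 and 0.346, 1.56 and 0.680, and 1.77, 0.307 and 0.383 CPM. The difference was small in WT-1 and DMD-2 and by far widest in DMD-3, and the log2 fold was 2.71 ± 0.32 (adjusted p = 9.82e-05). One section, the one with the highest score in DMD-3, supplied 30 of that muscle's 43.5 rich Hp counts. With the highest-scoring section of every muscle left out, an alternative chosen after seeing the data, the log2 fold of Hp was 2.25 (adjusted p = 7.05e-05). Hp was detected in 43 of 84 rich sections (51.2%) and 50 of 209 poor sections (23.9%).

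Retn, the gene of the adipocyte hormone resistin (chr8:3655770-3660110, plus strand), had 45 counts in all rich and 10 in all poor sections. The rich sections of WT had 2.95 and 2.69 CPM, those of Ctr 0.910 and 0.973, and those of DMD 1.80, 0 and 1.303. The poor sections had 0.193 and 0.346, 0.359 and 0, and 0.0786, 0 and 0.0766 CPM. Retn was thus higher in 6 muscles and without a read in either set of DMD-2. The log2 fold was 3.42 ± 0.47 (adjusted p = 0.000559), and reads came from 29 of 84 rich sections (34.5%) and 10 of 209 poor ones (4.78%). It kept its call without any one muscle other than DMD-1, without which it did not pass the count filter.

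Sfrp5, a secreted inhibitor of Wnt signalling known from adipose tissue, was higher in the rich sections of WT (10.8 and 11.2 CPM, against 3.28 and 5.54) and Ctr (14.9 and 12.6, against 6.47 and 6.46). In DMD the rich sections had 2.7, 2.54 and 2.17 CPM and the poor ones 1.10, 2.45 and 3.06. The groups thus differed in level and the 3 DMD muscles in sign. Over all muscles the log2 fold was 1.04 ± 0.17 (adjusted p = 0.00547), and the call was lost without Ctr-1 (adjusted p = 0.0671) or WT-1 (adjusted p = 0.0528). The difference between DMD and the other groups was -0.63 ± 0.36 and did not pass the test (adjusted p = 0.762). C4b, complement component 4, which shares most of its sequence with the neighbouring C4a, was higher in all 7 muscles with a log2 fold of 0.65 ± 0.13 (adjusted p = 0.0333). Its call was lost without any single muscle other than WT-1.

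Nnat, neuronatin, a small membrane protein of neurons and adipocytes (chr2:157560078-157562522, plus strand), had 74 counts in rich and 20 in poor sections. Its rich values were 2.29 and 1.79 CPM in the WT muscles, 0.303 and 2.43 in Ctr and 2.54, 1.27 and 9.99 in the DMD muscles, and its poor values 0.193 and 0.692, 0.120 and 0.170, and 0.354, 0.307 and 0.0766. All 7 muscles had a higher CPM in the rich sections, with the widest gap in DMD-3. In 3 of them this rested on few reads, with rich and poor counts of 1 and 1 in Ctr-1, 4 and 4 in WT-2, and 3 and 2 in DMD-2. DMD-1 supplied 31 of the 74 rich counts and DMD-3 supplied 23. The log2 fold was 3.40 ± 0.43 (adjusted p = 0.000153), and without DMD-3 it was 2.61 (adjusted p = 0.0018).

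Cyp2e1, a cytochrome P450 that oxidises ethanol and ketone bodies and is abundant in liver and fat (chr7:140763739-140774987, plus strand), was higher in all 7 muscles. The rich sections had 5.24 and 0.895 CPM in the WT muscles, 1.52 and 3.89 in Ctr and 1.31, 2.11 and 4.34 in the DMD muscles. No poor set was above 0.519 CPM, and the lowest rich set, that of WT-2, had 0.895 CPM. The log2 fold was 2.71 ± 0.34 (adjusted p = 0.000145), from 62 counts in rich and 28 in poor sections. Cyp2f2, another cytochrome P450, rose by 1.60 ± 0.26 (log2; adjusted p = 0.00539) and was higher in 6 of 7 muscles, with DMD-3 at 14.8 against 1.99 CPM. The highest-scoring section of DMD-3 supplied 19 of that muscle's 34 rich Cyp2f2 counts. Without DMD-3 the log2 fold of Cyp2f2 was 1.19 and no longer passed (adjusted p = 0.0552). Hp, Cyp2e1, Cyp2f2 and C4b were in no fixed list and were named after their values were seen.

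**Figure D2:**
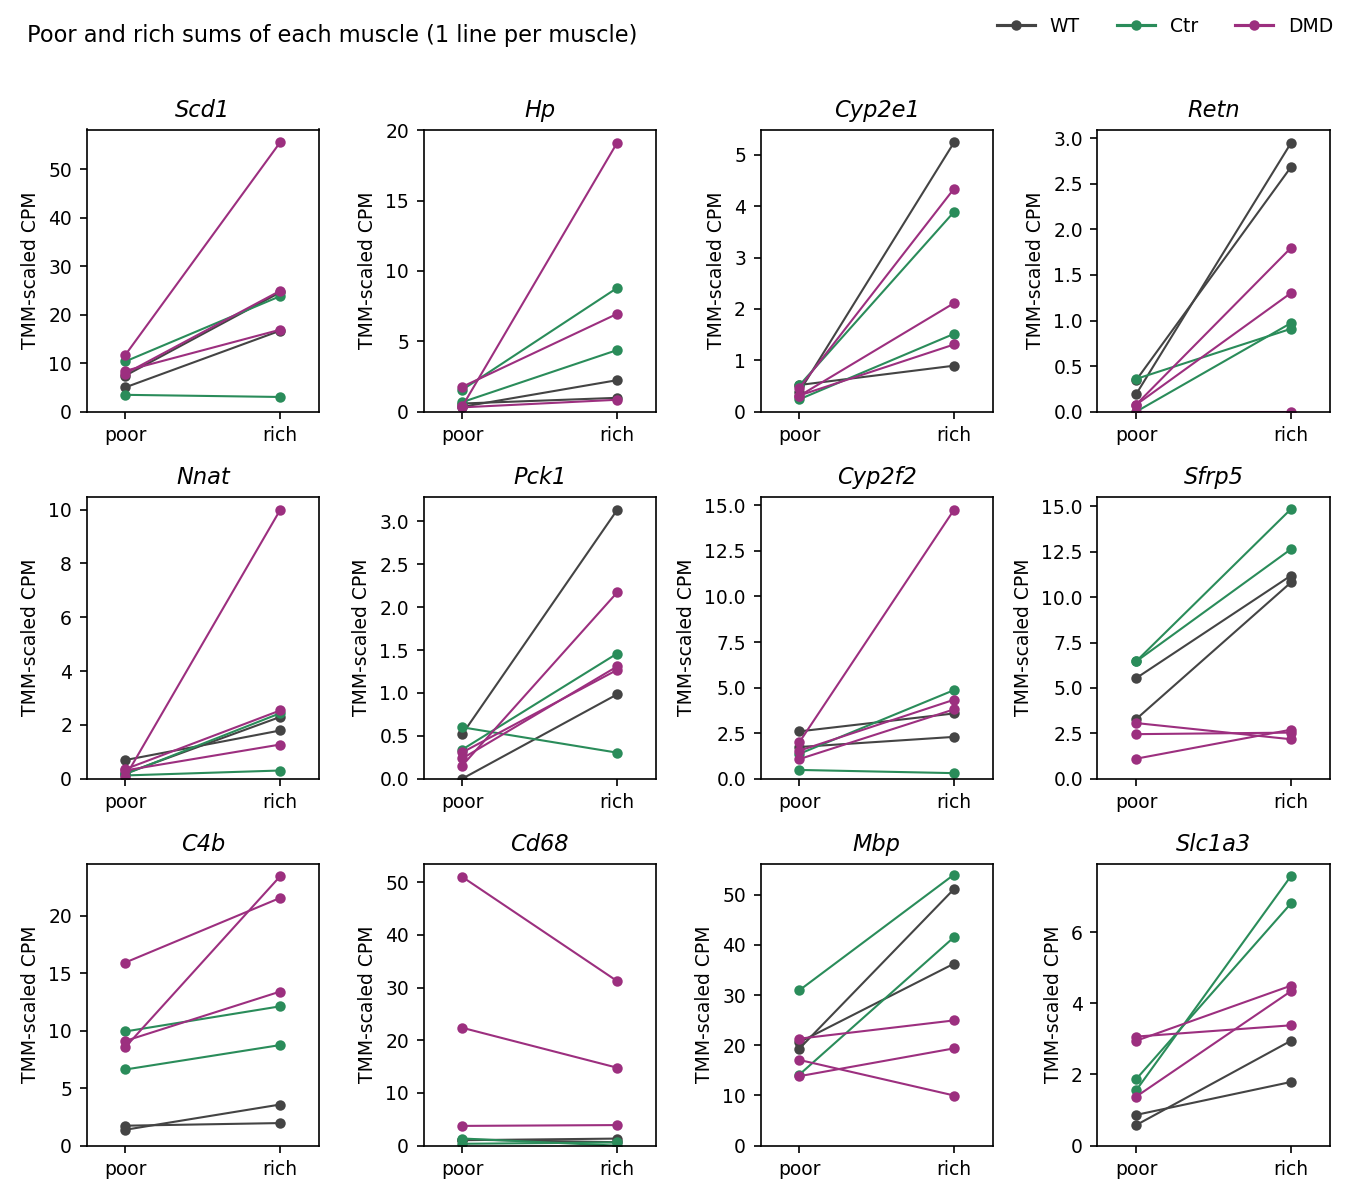
TMM-scaled CPM (vertical axis) of 12 called genes in the poor and rich sums of each muscle, with 1 line per muscle, grey for WT, green for Ctr and purple for DMD. Hp, Cyp2e1 and Nnat rise in every muscle, while DMD-3 has the highest rich value of Scd1, Hp, Nnat, Cyp2f2 and C4b.

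Schwann cells form the myelin of peripheral nerves. Of the 4 tested members of their list 1, Mbp, was called higher, beside 0.147% of all genes tested. Mbp, myelin basic protein, had 51.1 and 36.3 CPM in the rich sections of WT, 41.5 and 54.0 in Ctr and 19.4, 24.9 and 9.99 in the DMD muscles. The poor sections had 19.3 and 20.6, 14.1 and 30.9, and 13.8, 21.3 and 17.1 CPM. Mbp was thus higher in 6 muscles and lower in DMD-3, and the rich values of WT and Ctr all lay above those of DMD. Its log2 fold was 0.76 ± 0.14 (adjusted p = 0.0241), a call that was lost without Ctr-1, Ctr-2, WT-1 or WT-2 (adjusted p = 0.0609 to 0.13). The median log2 fold of the Schwann cell and nerve sheath list was 0.56, with all 4 members above 0; in DMD alone none of the 4 was called and the median was 0.16. Slc1a3, a glutamate transporter of glia, named after its values were seen, was higher in all 7 muscles with a log2 fold of 1.21 ± 0.24 (adjusted p = 0.0291), a call kept only without DMD-1 or DMD-2 among the fits that left out 1 muscle.

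Nerve-rich and adipocyte-rich sections coincided in part. Nerve-rich sections were here the 20% of each muscle with the highest summed CPM of Mbp, Prx, Ncmap and Pmp22, chosen after seeing the data. They made up 23 of 84 rich sections (27.4%) and 27 of 209 poor sections (12.9%). In the rich sets they were 3 of 10 and 4 of 13 in the WT muscles, 5 of 12 and 6 of 11 in Ctr, and 2 of 13, 2 of 13 and 1 of 12 in the DMD muscles. In the poor sets they were 1 of 25 and 4 of 32, 3 of 30 and 2 of 27, and 4 of 32, 8 of 33 and 5 of 30. Their share was thus higher in the rich sections of all 4 WT and Ctr muscles and of DMD-1, and lower in those of DMD-2 and DMD-3. With the nerve-rich sections left out of both sets, 13 of the 20 genes called over all 7 muscles kept their call. Scd1 (log2 fold 1.72), Hp (2.83), Cyp2e1 (2.76), Retn (3.67) and Nnat (3.51) were among them. The calls on Mbp, itself part of the nerve score, and on Slc1a3, C4b, Tmem100, Ldhb, Gm15543 and BC048679 were lost.

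Of the 3 genes that were lower in the rich sections, Cd68, a lysosomal protein of macrophages, fell by 0.64 ± 0.12 on the log2 scale (adjusted p = 0.0247). Its reads lay mostly in DMD, at 31.2, 14.8 and 3.91 CPM in rich and 51.0, 22.4 and 3.75 in poor sections, while WT and Ctr had at most 1.36 CPM. Cd68 was lower in 4 of 7 muscles, and the call was lost without DMD-1 (-0.45, adjusted p = 0.66) or DMD-2 (adjusted p = 0.0628). It was the only called gene among 16 macrophage genes tested, whose median log2 fold was -0.04, while 0.172% of all genes were called. Kcnc4, a potassium channel subunit, was lower in all 7 muscles (-0.28 ± 0.06, adjusted p = 0.0333), and Tmem100, named after its values were seen, in 6 of 7 (-0.45 ± 0.09, adjusted p = 0.0333). Both calls were lost without Ctr-1, WT-1 or WT-2, that on Kcnc4 also without DMD-3, and that on Tmem100 also without Ctr-2 or DMD-1. The rule for named genes also chose Foxa3 (log2 fold 0.39 ± 0.07, adjusted p = 0.0156) and Gm3045 (0.38 ± 0.07, adjusted p = 0.0156). These 2 genes lie on chromosomes 7 and 13 and had nearly the same counts (937 and 936 in rich sections), as multi-mapped reads divided between them would give, so neither value can be assigned to 1 gene. Both calls were lost without Ctr-1, WT-1 or WT-2. Other genes called higher included BC048679 (log2 fold 1.27), Ldhb (0.43) and Gm15543 (0.53). Each of these 3 lost its call without Ctr-1, Ctr-2, WT-1 or WT-2, and Ldhb also without DMD-3.

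A few genes of the adipocyte lists were called and most were not. Of 21 members tested in the list of fatty acid and triglyceride synthesis, Scd1 and Pck1 were called higher and none lower, with a median log2 fold of 0.11. Fasn, the fatty acid synthase, had 0.48 (adjusted p = 0.496) and Agpat2, an acyltransferase of triglyceride synthesis, 0.45 (adjusted p = 0.518), neither past the test. Among 11 genes of lipid droplets and lipolysis none was called and the median was 0.02; Pnpla2, the triglyceride lipase, had 0.08 (adjusted p = 0.709). Retn and Sfrp5 were called among 7 adipokines (median 0.12), Nnat among 15 genes of the adipocyte membrane and insulin response (median 0.11), and none among 11 adipocyte transcription factors (median 0.01), 9 lipid uptake genes (median 0.14) or 9 brown adipocyte genes (median 0.07). In the latter list Cox8b had 0.10 (adjusted p = 0.557). Of all genes tested, 0.147% were called higher and 0.0259% lower, and their median was -0.02.

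In the comparison over all 7 muscles, where 0.172% of all genes were called, no member of the stromal, vascular, fibre, tendon or metabolic lists was. In WT alone the fast fibre genes Myh4, a myosin heavy chain, and Actn3, an actinin, fell by 0.30 (adjusted p = 0.0309) and 0.33 (adjusted p = 0.0288) on the log2 scale. The 17 genes of fibro-adipogenic progenitors had a median of 0.08, with Dcn, the matrix proteoglycan decorin, at 0.10 (adjusted p = 0.742) and Gsn, gelsolin, at -0.12 (adjusted p = 0.681). The 16 genes of fibrillar matrix had a median of -0.01 and the 9 of basement membrane -0.07. Endothelial genes (12 tested) had a median of 0.10, pericyte and smooth muscle genes (9) 0.26, and lymphocyte, granulocyte and mast cell genes (6) 0.33. Fast fibre genes (14) had a median of -0.05, slow fibre genes (9) 0.00, regenerating fibre genes (9) -0.04, and neuromuscular synapse genes (10) 0.06. All 5 genes of the myotendinous junction list lay below 0, with a median of -0.62. The groups differed here, with medians of 0.12 in WT, where 3 of 5 lay above 0, -0.66 in Ctr and -0.32 in DMD. The 12 genes of fatty acid oxidation had a median of 0.11, the 16 of oxidative phosphorylation 0.04, and the 10 of the immediate early and heat shock list 0.00. The 9 mitochondrially encoded genes all lay above 0, at 0.08 to 0.13 with a median of 0.10. The 12 glycolytic genes all lay below 0, at -0.12 to -0.01 with a median of -0.05, where the median of all genes was itself -0.02. By group, all 9 mitochondrially encoded genes lay above 0 in WT and DMD, but only 4 of 9 in Ctr (median -0.03). Of the 12 glycolytic genes, 0 lay above 0 in WT (median -0.12), 1 in Ctr (median -0.10) and 4 in DMD (median -0.01).

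**Figure D3:**
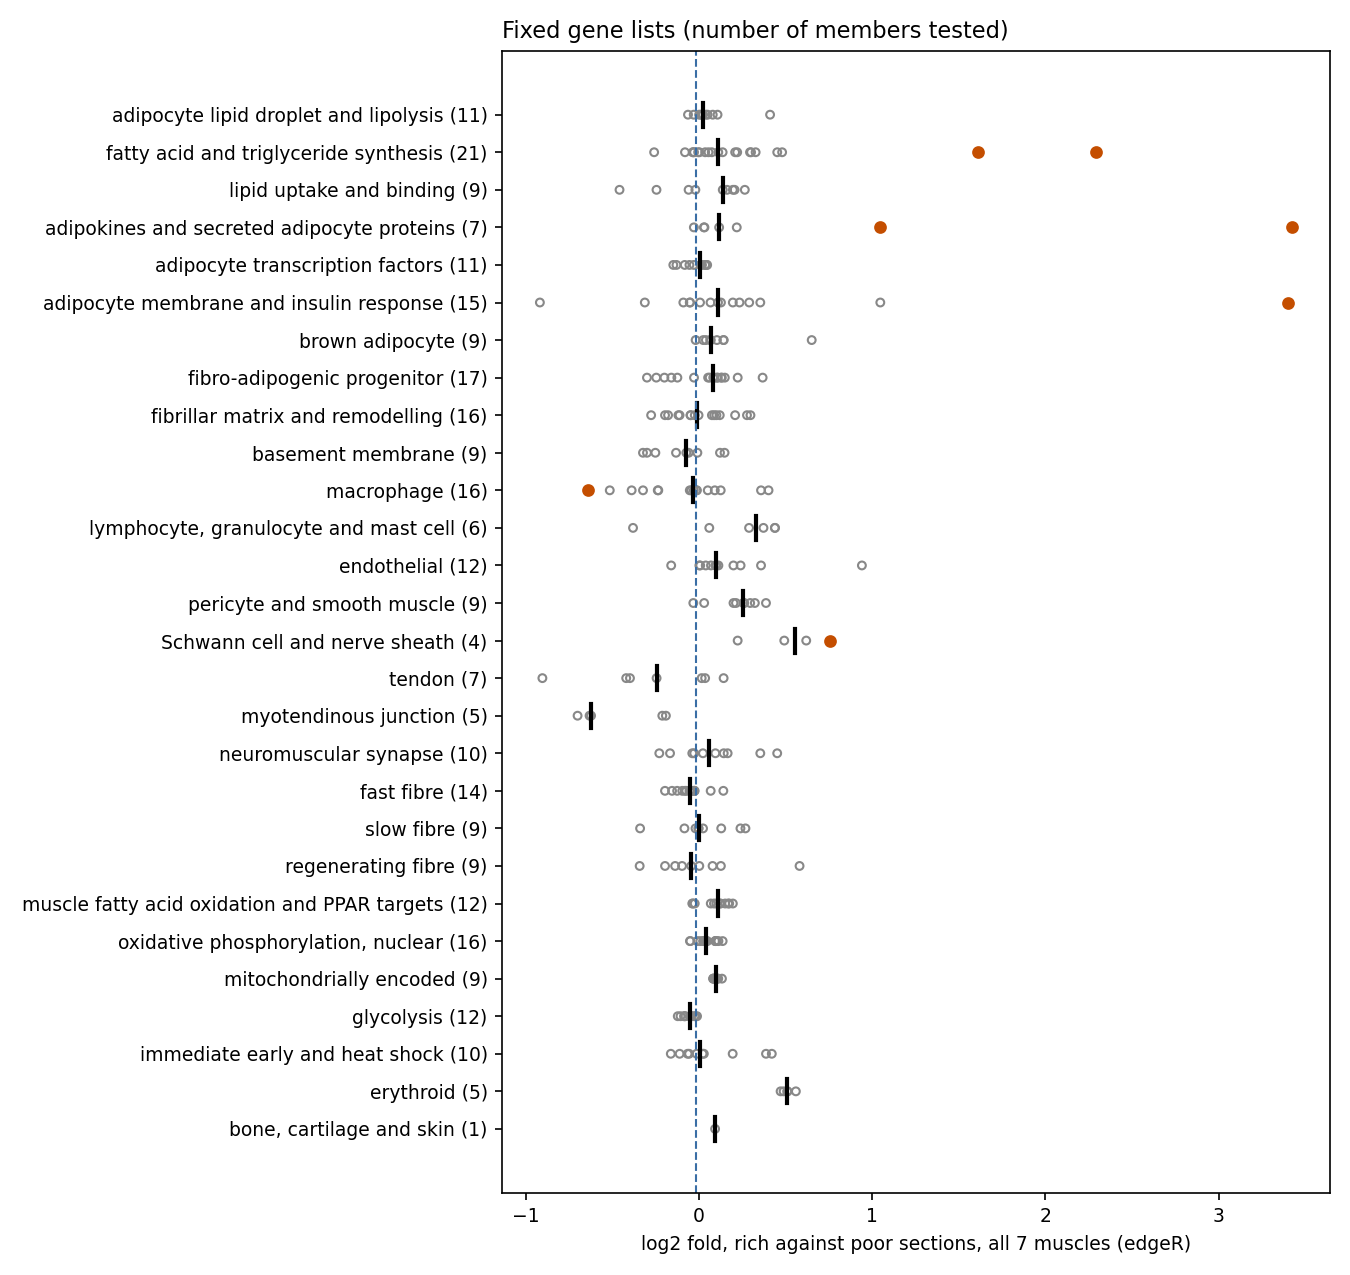
Log2 fold between rich and poor sections over all 7 muscles (horizontal axis, edgeR) of every tested member of the 28 fixed lists, with the number of members tested in brackets; filled orange points passed an adjusted p of 0.05, open grey points did not, black bars are list medians and the dashed line is the median of all genes. Adipocyte lists hold 5 called points far to the right of members near 0, and the 4 Schwann cell genes all lie above 0.

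By group, 23 genes were called between rich and poor sections in WT (0.198%; 17 higher and 6 lower, 0.147% and 0.0517%), 15 in Ctr (0.129%; 11 higher and 4 lower, 0.0948% and 0.0345%) and 11 in DMD (0.0948%; 7 higher and 4 lower, 0.0604% and 0.0345%). The genes called higher in DMD were Scd1 (log2 fold 1.77 ± 0.15, adjusted p = 1.48e-07), Hp (2.90), Cyp2f2 (2.05), Nnat (3.83), Retn (4.08) and Cyp2e1 (2.55), with C4b (0.74). In WT, Scd1 rose by 1.73 ± 0.27 (adjusted p = 0.00207), and in Ctr it had 0.83 ± 0.31 (adjusted p = 0.573). Genes called in 1 group and named after their values were seen included the metal-binding metallothioneins Mt1 (log2 fold 1.03) and Mt2 (1.62) in WT, where Mt2 had 35.7 against 9.94 CPM in WT-1 and 3.13 against 3.11 in WT-2, and elastin, Eln (0.99), in Ctr. In DMD the interferon-induced Oasl2 fell by 1.29 on the log2 scale and Slfn1 by 1.45, and in both cases the gap lay mostly in DMD-1, with 5.89 against 16.6 CPM for Oasl2 and 4.01 against 11.3 CPM for Slfn1. The difference between DMD and the mean of WT and Ctr was 0.49 ± 0.25 for Scd1 (adjusted p = 0.726) and 0.86 ± 0.75 for Hp (adjusted p = 0.895), neither past the test. The count in WT was 3 without WT-1, 6 without WT-2 and 52 without DMD-1; the count in Ctr was 38 without DMD-1 and 9 without WT-1 or WT-2; the count in DMD was 7 without DMD-1, all higher, and 9 without DMD-3, 2 higher and 7 lower. By library totals alone the WT split was 15 higher and 62 lower, with the median of all genes at -0.12 in place of -0.02, and the Ctr split 11 and 9. DESeq2 called 14 higher and 8 lower in the WT muscles, 2 and 4 in Ctr, and 3 and 0 in the DMD muscles. Its own filter on the mean count gave an adjusted p to only 805 genes for WT and 1030 for Ctr. For DMD all 11598 genes had one. With this filter off, an alternative added after seeing the data, DESeq2 called 7 genes higher and 1 lower for WT. The Ctr split was then 5 higher against 1 lower, and the DMD split stayed the same.

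The rich-to-poor change differed between DMD and the mean of WT and Ctr for 6 genes (0.0517% of 11598 tested), with a higher value in DMD for 2 (0.0172%) and a lower one for 4 (0.0345%). The count was 1 without WT-2, 3 without WT-1, 11 without Ctr-2 and 17 without DMD-1. Actc1, the cardiac actin that is also made in developing and regenerating fibres (chr2:114047282-114053548, minus strand), had 249 and 166 CPM in the rich sections of WT, 241 and 217 in Ctr, and 254, 788 and 450 in the DMD muscles. The poor sections had 119 and 52.6, 132 and 109, and 194, 836 and 510 CPM. All 4 WT and Ctr muscles had more Actc1 in rich sections, whereas 2 of 3 DMD muscles had less. The log2 fold was 1.304 ± 0.12 in the WT muscles, 0.93 ± 0.12 in Ctr and 0.05 ± 0.08 in the DMD muscles, and the difference was -1.07 ± 0.12 (adjusted p = 4.12e-05).

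Lpl, the lipoprotein lipase that releases fatty acids from circulating triglyceride (chr8:68880491-68907448, plus strand), rose in the rich sections of WT, from 902 to 1211 and from 624 to 925 CPM, and of Ctr, from 1716 to 2330.3 and from 1435 to 2040.05 CPM. In DMD the poor and rich values were 402 and 381, 693 and 649, and 436 and 455 CPM. The difference of the log2 folds was -0.52 ± 0.07 (adjusted p = 0.000676). Car3, carbonic anhydrase 3, which is abundant in both slow muscle fibres and fat (chr3:14863512-14872523, plus strand), changed the opposite way. Its rich and poor values were 2268 and 2968, and 2197 and 3410 CPM in the WT muscles, and 1650 and 2673, and 1593 and 2225 CPM in the Ctr muscles. The DMD muscles had 2107 and 2115, 1503 and 1488, and 2356 and 2346 CPM. It fell in WT by 0.51 ± 0.07 on the log2 scale (adjusted p = 0.000338) and in Ctr by 0.59 ± 0.07 (adjusted p = 7.22e-05), while DMD had 0.00 ± 0.06 (adjusted p = 1). The difference was 0.56 ± 0.07 (adjusted p = 0.000388). The rich-minus-poor values of the 4 WT and Ctr muscles all lay below those of the 3 DMD muscles. This is part of the same difference, and how many of all genes separate in this way was not counted. Both Lpl and Car3 are among the adipocyte markers held out of the score.

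The calls on Lpl and Car3 were lost without WT-2, both with adjusted p = 0.0511 at differences of -0.50 and 0.49, and that on Actc1 was kept without any one muscle. With nerve-rich sections left out, the differences were -1.12 for Actc1 (adjusted p = 0.000221) and -0.52 for Lpl (adjusted p = 0.0231), both called, and 0.50 for Car3, which no longer passed (adjusted p = 0.0845). When every section was thinned to the lowest kept total of its muscle before scoring, none of the 3 passed, at -0.46, -0.22 and 0.00.

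Globin RNA, which comes from red blood cells in the tissue, also differed. Hbb-bs had 960 and 1454 CPM in the rich sections of WT and 503 and 759 in the poor ones, 1153 and 3809 against 757 and 1693 in Ctr, and 307, 719 and 1348 against 576, 746 and 858 in DMD. All WT and Ctr muscles had more in the rich sections, and the DMD muscles went both ways. The difference was -1.02 ± 0.20 for Hbb-bs (adjusted p = 0.0446) and -1.03 ± 0.19 for Hbb-bt (adjusted p = 0.0343), genes whose sequences are nearly identical and whose reads may be shared. Both calls were lost without DMD-2, WT-1 or WT-2. Of the 5 erythroid genes tested, 3 were called higher in the WT muscles, 4 in Ctr and 0 in the DMD muscles in edgeR. Of all genes tested, 0.147% were called higher in WT, 0.0948% in Ctr and 0.0604% in DMD. In DMD 774 genes had an unadjusted p below 0.05. The calls in WT and in Ctr include both Hbb-bs and Hbb-bt, so they may not all be separate results. The median log2 folds of the erythroid genes were 0.92 in WT, 0.95 in Ctr and -0.11 in DMD.

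The Schwann cell genes showed differences of the same sign without passing the test. The difference between DMD and the other groups was -0.96 ± 0.21 for Mbp (adjusted p = 0.11), and all 4 members tested lay below 0. Nerve-rich sections made up 30 to 54.5% of the rich sections in the WT and Ctr muscles and 8.33 to 15.4% in the DMD muscles. The nerve score contains Mbp and Pmp22 of the Schwann cell list, so this share is not a result separate from those genes. Without the nerve-rich sections the group differences of Hbb-bs and Hbb-bt were -1.20 and -1.22, both called.

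**Figure D4:**
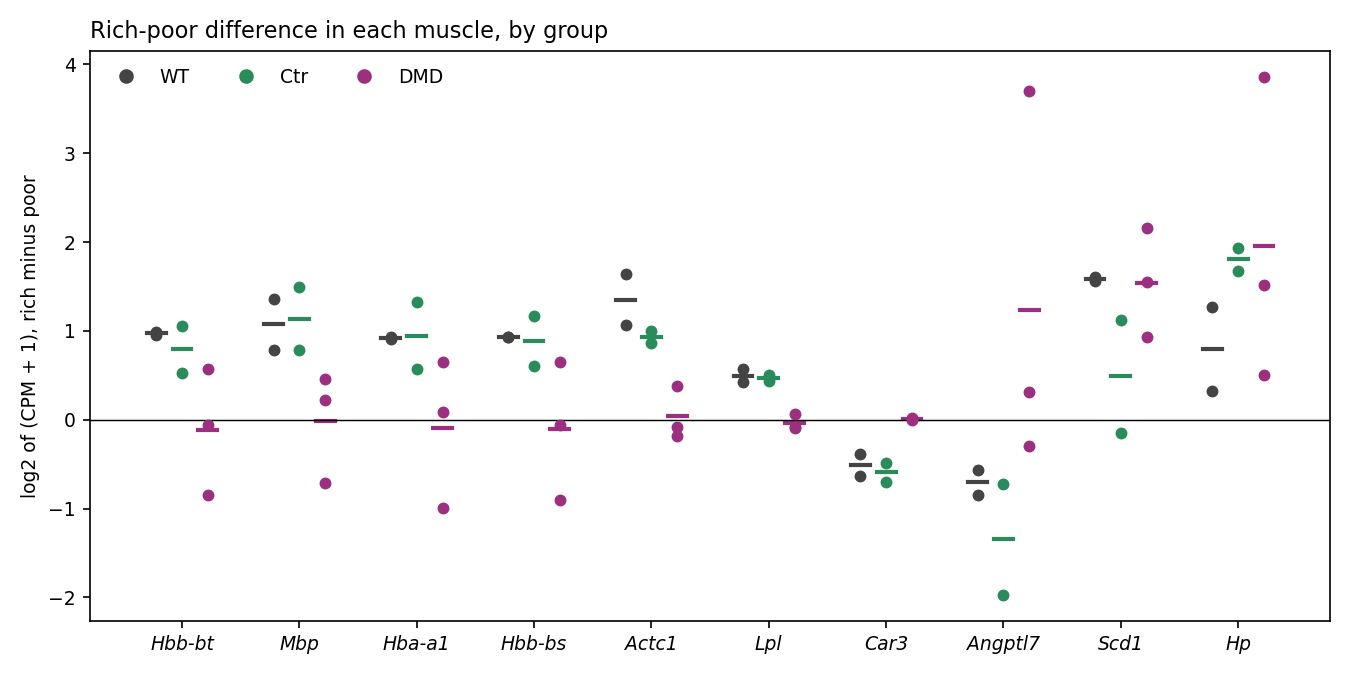
Rich minus poor difference of log2 (CPM plus 1) in each muscle (vertical axis) for 10 genes, with 1 point per muscle and a bar at the group mean, grey for WT, green for Ctr and purple for DMD. For Actc1, Lpl and Car3 the DMD points lie apart from the other groups, and these genes were named because that difference was called. For Scd1 and Hp the groups overlap.

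The remaining gene, Angptl7, a secreted protein of the angiopoietin-like family found in tendon and cornea, rested on 1 muscle and was named after its values were seen. It had 26.9 CPM in rich and 1.15 in poor sections of DMD-3, and at most 4.23 CPM in the rich sections of any other muscle. The difference of 3.93 ± 0.75 (adjusted p = 0.0446) was 1.41 without DMD-3 (adjusted p = 0.575), and it was also lost without Ctr-1, WT-1 or WT-2. Several tendon genes were high in the same sections of DMD-3, with 15.6 against 6.28 CPM for Fmod and 9.55 against 4.90 CPM for Tnmd. Chad, chondroadherin of tendon and cartilage, had 36.0 against 2.45 CPM in DMD-3 and was lower in the rich sections of all other 6 muscles. The 7 tendon genes tested had a median log2 fold of -1.10 in the WT muscles, -1.58 in Ctr and 0.19 in the DMD muscles, and none was called in any group in edgeR, where 850, 806 and 774 of all genes had an unadjusted p below 0.05. In section 57 of DMD-3, the section with the highest score, there were 26 reads of Chad, 18 of Angptl7, 35 of Scd1 and 30 of Hp. Its total was 143808 counts. Reads of adipocyte and of tendon genes thus occurred in the same section there.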

How the data were processed

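Single cryosections of 7 tibialis anterior muscles were sequenced with section barcodes and molecular identifiers, per the labels' protocols. The authors deposited expected counts, in which multi-mapped and overlapping reads were divided into fractions (20.1 to 26.1% of values above 0 held a fraction). The aligner was STAR 2.7.7a and the genome GRCm38, per the submitters' processing notes. The counter was featureCounts 2.0.1, run with strand and by gene name, per the file headers. The headers show another annotation for WT than for Ctr and DMD. Genes whose name and length matched across the tables (53083) were used, and 104 others shared by name were left out.

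Rich and poor sections were added up per muscle, giving 14 sums, and rounded. edgeR 4.0.16 (R 4.3.3) was run with filterByExpr, TMM and quasi-likelihood F tests, with the muscle as block and the scoring genes left out. One fit had a common region effect and another a region effect per group, from which the mean of WT and Ctr was subtracted from DMD. Calls needed an adjusted p under 0.05. Standard errors of log2 folds were taken as the absolute log2 fold over the root of the F statistic. Counts were also simulated for the 11598 genes of the all-muscle comparison, with a spread that depended only on a gene's level. Changes were given to 100 genes by 1 and to 100 by 2 on the log2 scale, all with a mean fitted count above 5. Of these, 84% and 100% were recovered, with 5 false calls. Recovery of genes with fewer counts, such as Retn and Pck1, was not measured.

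The rule for naming genes took, per direction, up to 12 called genes of largest fold whose mean reached 10 CPM and whose sign was the same in 7 muscles; up to 4 called members of each of 28 fixed lists, or the most highly expressed to reach 2; and up to 6 per direction called between groups. The sections, lists and rules were chosen with earlier results of these data known. The alternatives were DESeq2 1.42.0, other scaling, filters, scores, section sets and blocks, and each muscle left out. Added after seeing the data were leaving out the highest-scoring or the nerve-rich sections, a score without Cfd, and DESeq2 without its own filter on the mean count. Some members of the Schwann cell list are not reported here. Only counting error and the spread between muscles are covered by the errors given.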

Additional observations from a re-analysis of the deposited data

Results flagged for a closer look

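In 9 of 73 results 1 muscle lay far from the other 6 by Dixon's test. By chance that test flags about 1 in 20 independent results. These 73 share the same muscles and sections, and some were named for being called, so that rate is no measure for them. As differences of log2 (CPM plus 1), rich minus poor, DMD-3 was the highest for Nnat (3.35), Chad (3.42), Angptl7 (3.70), Thbs4 (0.70) and Sparc (0.20). The Thbs4 level in DMD-3 was 147 CPM in rich and 89.9 CPM in poor sections. Ctr-1 was the lowest for Pck1 (-0.29), DMD-1 for Col1a1 (-0.57; 361 against 535 CPM) and DMD-2 for Cox6a2 (0.077). The log2 ratio of section depth, rich over poor, was lowest in DMD-3 (-1.16).

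The rich-to-poor change differed between DMD and the mean of WT and Ctr by a test of the difference itself for 6 genes. The log2 differences were -1.07 for Actc1, 0.56 for Car3, -0.52 for Lpl, -1.03 for Hbb-bt, -1.02 for Hbb-bs and 3.93 for Angptl7.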

How the results depend on the processing

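The main limit is the depth of the score, with 66.0 to 521 counts of the 4 genes per muscle, so that many sections were ranked on a handful of reads. Scd1, Hp, Cyp2e1 and Retn passed the test in every alternative that gave them an adjusted p except the one without a muscle block (20 of 21, 20 of 21, 19 of 20 and 16 of 17), with log2 folds of 1.18 to 1.92, 1.82 to 3.34, 1.73 to 2.97 and 2.22 to 3.82. DESeq2 with its own filter gave these 4 genes no adjusted p and so no call. Nnat passed in 18 of 20, Cyp2f2 in 15 of 20, Sfrp5 in 14 of 21, Mbp in 11 of 21 and C4b in 6 of 21.

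Counts of called genes are given in the order all muscles (20), WT (23), Ctr (15), DMD (11) and group difference (6), where they moved by more than 1.5 times. The fit with no low-count filter gave 105, 64, 43, 35 and 22. Thinned sections gave 3, 1, 0, 4 and 0, the zeros with 248 and 246 genes at an unadjusted p below 0.05. All other sections as reference gave 15 in WT, 9 in Ctr, 6 in DMD and 3 in the difference. The top 10% gave 11 over all, 11 in WT and 11 in the difference. Library totals without TMM gave 77 in WT and 3 in the difference. DESeq2 gave 6 in Ctr, 3 in DMD and 3 in the difference, and without independent filtering also 8 in WT. Over all muscles DESeq2 called 25 genes with an adjusted p for 580 genes, none among the 20, and without its own filter 21, of which 14 were among the 20. Without the muscle ends there were 82 in WT, 8 in Ctr and 2 in DMD. The z-score gave 5 in DMD, equal weight of groups 62 over all, DMD muscles alone 7, and DMD minus Ctr only 3. Of the alternatives added after seeing the data, the score without Cfd gave 8 over all, 8 in Ctr and 5 in DMD; leaving out nerve-rich sections 10 in WT; and leaving out the highest-scoring section 7 in DMD. Leaving out each muscle gave 9 to 31, 3 to 52, 9 to 38, 7 to 13 and 1 to 17. The cause of these shifts was not tested.

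Rich and poor sums were paired by muscle. With no replicate block in edgeR 0 genes were called in any comparison (156, 223, 185, 55 and 138 at an unadjusted p below 0.05). Adding the replicate number crossed with region as a replicate block gave 12 calls in the group difference. Deviations of same-numbered muscles correlated at -0.005 to 0.04 over 4282 genes, and those of muscles with other numbers at -0.04 to 0.019. With 2 muscles in WT and in Ctr, the deviations within each of these groups mirror each other. This check therefore cannot decide whether equal numbers pair the muscles.

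Results that reversed were the position of rich sections (5.14 thinned, 1.33 without DMD-1; range without each muscle -9.48 to 1.33), their depth (0.054 by z-score, 0.16 without DMD-3; range -0.12 to 0.16), Gm3045 (-0.075) and Ldhb (-0.040) when thinned, and Ibsp, which had -3.70 without WT-2, 2.00 without DMD-1 and 0.09 with all muscles.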
